A study of Homo sapiens with 6 samples.

Results

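The genes described here are 10 markers of breast cancer stemness, CD44, CD24, ALDH1A1, ALDH1A3, SOX4, SOX9, KLF4, BMI1, PROM1 and POU5F1. They were taken by gene name from a table of 58302 genes, and each name matched 1 gene. RNA was sequenced from 6 libraries of MDA-MB-231-DR, which is MDA-MB-231, a triple-negative breast carcinoma line, made resistant to doxorubicin. They were 3 control libraries and 3 libraries of cells treated with Cyperotundone (CYT), a sesquiterpenoid ketone of sedge. The study's methods keep the resistant line in medium with a low concentration of doxorubicin, so both groups share the resistant background. Whether that medium was kept during the CYT treatment is not given in the sources used here. The CYT dose and time for these libraries, and whether the replicates were separate cultures, are not given in the sources used here (the study's statistics section speaks of independent experiments in general, without naming these libraries). The p-values therefore measure only the spread between these libraries, which may be technical. All values come from 1 resistant line, and the parental line was not analysed here.

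Stemness markers label the small fraction of tumor cells that can start a new tumor, form spheres in suspension and survive chemotherapy. In breast cancer the classic phenotype is CD44 high and CD24 low, or high aldehyde dehydrogenase activity. CD44 is the hyaluronan receptor, and CD24 is a small glycosylated surface protein of more differentiated epithelial cells. ALDH1A1 and ALDH1A3 oxidize retinal to retinoic acid. SOX4 and SOX9 are transcription factors of progenitor cells and of the epithelial to mesenchymal transition. KLF4 and POU5F1 (OCT4) are reprogramming factors, BMI1 is the RING-finger partner in Polycomb repressive complex 1, and PROM1 encodes the surface glycoprotein CD133. The comparison addresses whether CYT altered the RNA of these markers in drug-resistant cells.

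The names ALDH1 and OCT4 can stand for several genes, so the sequences of the study's qPCR primers were matched to the GENCODE 29 transcripts, and they are shown here because they fix which rows of the table these names refer to.
ALDH1 forward primer: gcacgccagacttacctgtc
ALDH1 reverse primer: cctcctcagttgcaggattaaag
OCT4 forward primer: gggagattgataactggtgtgtt
OCT4 reverse primer: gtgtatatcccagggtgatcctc
The ALDH1 pair had both sites only in ALDH1A1, in 4 of its 7 transcripts and with a product of 129 bp. The OCT4 pair had both sites only in POU5F1, in 2 of its 9 transcripts and with a product of 144 bp. The OCT4 reverse site alone was also present in the POU5F1B, POU5F1P3 and POU5F1P4 copies. The names were therefore read as the rows ALDH1A1 and POU5F1.

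The 250 bases before the RefSeq transcription start (GRCh38.p14) are shown for the related genes ALDH1A1 and ALDH1A3, since the first had no count in any library while the second was counted in every library, and for SOX4, which had the largest fitted rise of the markers tested. Each is printed on the gene's own strand, and capitals mark CG dinucleotides.
ALDH1A1, chr9:72953054-72953303, minus strand: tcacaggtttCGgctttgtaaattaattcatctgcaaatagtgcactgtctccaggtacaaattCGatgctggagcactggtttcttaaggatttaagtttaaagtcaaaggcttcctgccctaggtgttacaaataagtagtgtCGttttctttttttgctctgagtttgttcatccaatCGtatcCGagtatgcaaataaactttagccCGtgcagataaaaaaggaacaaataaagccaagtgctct
ALDH1A3, chr15:100879581-100879830, plus strand: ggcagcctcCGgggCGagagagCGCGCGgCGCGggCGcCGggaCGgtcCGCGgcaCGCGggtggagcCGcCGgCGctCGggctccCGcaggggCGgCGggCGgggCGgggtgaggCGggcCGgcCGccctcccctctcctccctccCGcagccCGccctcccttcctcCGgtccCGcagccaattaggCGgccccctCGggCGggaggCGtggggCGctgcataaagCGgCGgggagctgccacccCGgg
SOX4, chr6:21593501-21593750, plus strand: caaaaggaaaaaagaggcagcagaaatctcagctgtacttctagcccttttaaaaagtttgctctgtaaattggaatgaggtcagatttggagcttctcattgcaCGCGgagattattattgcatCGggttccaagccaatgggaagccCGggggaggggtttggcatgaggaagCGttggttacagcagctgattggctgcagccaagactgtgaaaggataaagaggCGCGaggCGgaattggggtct
The ALDH1A1 window held 6 CG dinucleotides, and 41.1% of the 35116 RefSeq windows of this length hold no more. The ALDH1A3 window held 38, and 97.3% of windows hold no more. The SOX4 window held 8, near the median of 11 over all windows. The letters CCAAT, searched on both strands, were in all 3 windows and in 32% of all windows. The letters TATAAA were in none of the 3 and in 10.7% of all windows. These are matches of letters only. All 3 windows lie inside the GENCODE 29 loci of their genes, so the RefSeq starts used here differ from the starts of those loci. For SOX4, a single exon of 5852 bases in GENCODE 29, the window is part of the annotated exon. The set of RefSeq windows used here held none for SOX9 and POU5F1.

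Summed gene counts ran from 13056270 to 17770102 per library, and CYT replicate 2 stood apart, with correlations of log2 CPM of 0.904 and 0.905 to the other CYT libraries against at least 0.953 for every other pair within a group. The mesenchymal markers known for MDA-MB-231 were present, and ESR1 and PGR, the hormone receptors absent from triple-negative cells, had at most 4 and 3 counts in any library. The summed level of the 8 line markers was 4507 to 4986 CPM (counts scaled to library size by the TMM method) in control and 2238 to 2384 CPM in CYT libraries. Of these, VIM, AXL and FOSL1 fell and LOX rose, a share of 50% against 28.6% of all genes tested. However, the AXL call was lost whichever library was left out and the LOX call without any library except control replicate 2. The summed level of 9 luminal markers was 346 to 580 CPM in control and 123 to 171 CPM in CYT libraries. Of the 9, 4 were tested and 1 was called, a share of 25%. This was KRT19, which fell from 287 ± 114 to 26.3 ± 14.4 CPM (SD, n = 3) and made up a large part of the control sum. EPCAM had at most 12 counts, and CDH1 had 0 in control and up to 16 after CYT. The sums of 6 basal markers were 3.25 to 7.75 and 3.03 to 4.29 CPM, where 2 were tested and 1 was called (50%). KRT15 fell (a call lost without control replicate 1 or 3 or CYT replicate 3), and TP63 was not called. The other 4, KRT5, KRT14, KRT6A and DSG3, had 0 counts in control and up to 11, 5, 6 and 9 after CYT. The sums of 6 blood and vessel markers, of which 2 were tested and neither called, were 1.55 to 3.31 and 2.33 to 4.13 CPM. CD3E had 0 counts, PTPRC and LYZ had 0 in control and up to 7 and 11 after CYT, CDH5 had at most 4, and PECAM1 and VWF had at most 35 and 32. The part of these shifts in the changes described next was not tested.

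After CYT, SOX4 and SOX9 rose and KLF4 was at lower levels in every treated library, while the surface pair CD44 and CD24 that defines the classic phenotype was not called. Of the 10 markers, 7 passed the filter on low counts, and ALDH1A1, PROM1 and POU5F1 did not. Among those 7, 2 were called at an adjusted p under 0.05 in the edgeR quasi-likelihood fit, adjusted over all genes by Benjamini-Hochberg, both of them higher after CYT. The background was the same share, since 4451 of all 15572 genes tested were called, which is 28.6% (15.7% higher and 12.9% lower). Groups did not overlap for 3 of the 7 markers, SOX4, SOX9 and KLF4, against 46.1% of all genes tested. With 3 libraries against 3, an exact two-sided permutation test cannot give a p under 0.1, and these 3 markers reached that value. With the replicate number as a block 4 markers were called, where 39.9% of all genes were.

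**Figure D1:**
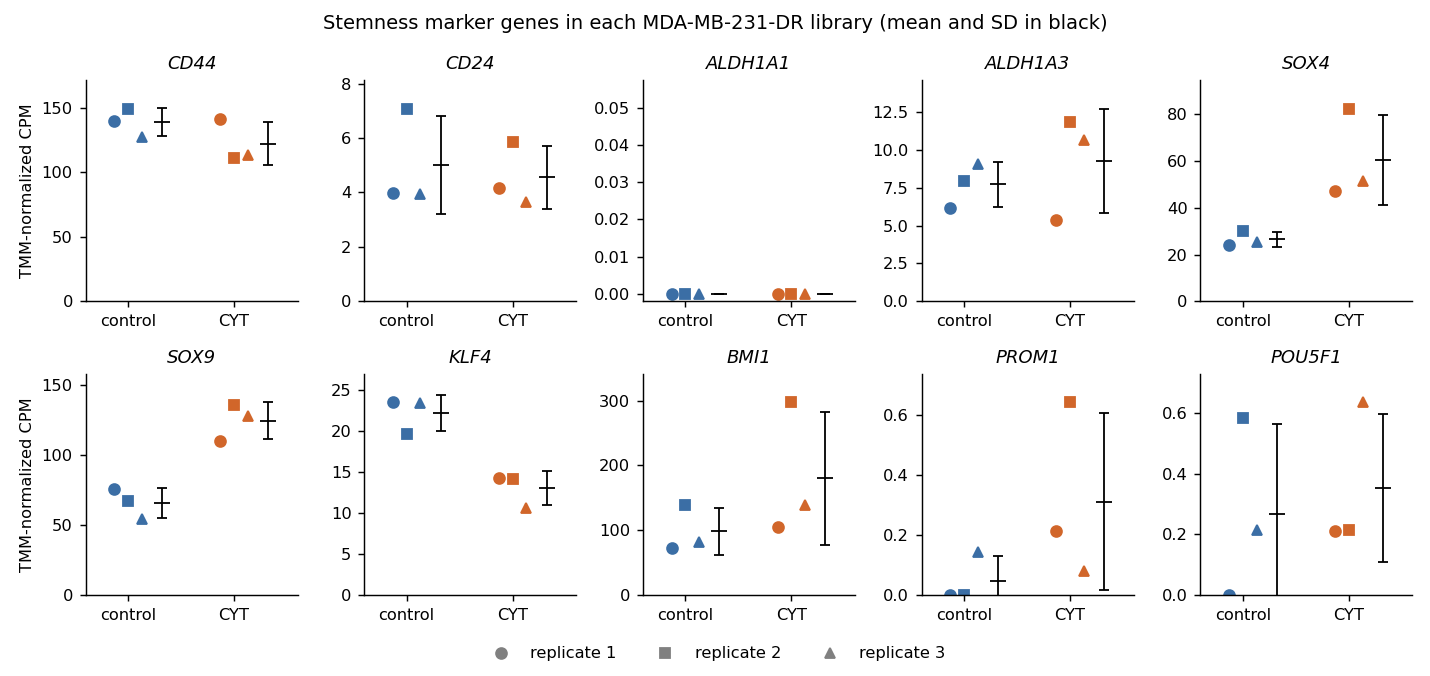
TMM-normalized CPM of each of the 10 markers (y axes, each panel with its own scale) in the 3 control and the 3 CYT libraries, with the symbol giving the replicate number and the black bar the mean and SD of 3 libraries. SOX4 and SOX9 lie higher in all CYT libraries and KLF4 lower, CYT replicate 2 is the highest library for BMI1 at 297 CPM, and ALDH1A1 is at 0 throughout.

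SOX4 (chr6:21592768-21598619, GRCh38), a transcription factor known for driving the mesenchymal program in breast cancer, had levels of 23.9, 30.3 and 25.3 CPM in control replicates 1 to 3. It had 47.3, 82.5 and 51.6 CPM in CYT replicates 1 to 3. Every CYT library was above every control library, and CYT replicate 2 was the highest of all. The group means were 26.5 ± 3.35 and 60.5 ± 19.2 CPM (SD, n = 3), and the log2 fold change was 1.19 (SE 0.32, 95% interval 0.47 to 1.91, edgeR adjusted p = 0.0219), a 2.28-fold rise. Same-numbered libraries differed by 1.98-fold, 2.72-fold and 2.04-fold. The call was lost without control replicate 1 (log2 fold change 1.10, edgeR adjusted p = 0.0887) and without control replicate 3 (1.13, edgeR adjusted p = 0.0950). In a bulk library, more cells that express a gene and more RNA per cell cannot be told apart, here and below.

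SOX9 (chr17:72121020-72126420, GRCh38), a transcription factor of mammary progenitor cells and a partner of SNAI2 in reprogramming them, had levels of 75.5, 67.3 and 54.1 CPM in control replicates 1 to 3. The CYT replicates had 110, 135 and 128 CPM. The lowest CYT library was well above the highest control library, and the spread within each group was smaller than for SOX4 after CYT. Means were 65.7 ± 10.8 and 124 ± 12.9 CPM (SD, n = 3), with a log2 fold change of 0.92 (SE 0.28, 95% interval 0.29 to 1.55, edgeR adjusted p = 0.0353), a 1.90-fold rise. The SOX9 call depended on the libraries used. It was kept without CYT replicate 2 (edgeR adjusted p = 0.0247) and lost without any of the other 5 libraries, where the log2 fold change was from 0.78 to 1.01 and the edgeR adjusted p from 0.0737 to 0.165.

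KLF4 (chr9:107484852-107490482, GRCh38), a zinc-finger factor with roles both in self-renewal and in epithelial differentiation, had levels of 23.5, 19.7 and 23.4 CPM in the control libraries. In the CYT libraries it had 14.3, 14.2 and 10.6 CPM. All CYT libraries were below all control libraries, opposite in direction to the SOX genes. The means were 22.2 ± 2.18 and 13 ± 2.08 CPM (SD, n = 3), and the log2 fold change was -0.77 (SE 0.30, unadjusted 95% interval -1.44 to -0.10), with an edgeR adjusted p of 0.0834 that missed the threshold. With the replicate block KLF4 was called (log2 fold change -0.77, edgeR adjusted p = 0.0436), as it was without CYT replicate 2 (-0.83, edgeR adjusted p = 0.0467).

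BMI1 (chr10:22321211-22331484, GRCh38), which stimulates the ubiquitin ligase of Polycomb complex 1 and represses the INK4A-ARF locus, was the marker with the widest spread. Control replicates 1 to 3 had 73.4, 140 and 82.0 CPM. CYT replicates 1 to 3 had 105, 297 and 138 CPM. Control replicate 2 was above CYT replicates 1 and 3, so the groups overlapped. Each CYT library was above the control library of its number, by 1.44-fold, 2.13-fold and 1.69-fold. Such a rise in all same-numbered pairs was seen in 32.8% of all genes tested. The means were 98.4 ± 36.1 and 180 ± 103 CPM (SD, n = 3) with a log2 fold change of 0.87 (SE 0.44, 95% interval -0.10 to 1.85, edgeR adjusted p = 0.161). With the replicate block BMI1 was called (0.79, edgeR adjusted p = 0.0301). Without CYT replicate 2 alone the log2 fold change was 0.29 (edgeR adjusted p = 0.514), and without both libraries numbered 2, an alternative chosen after seeing the data, it was 0.68 (edgeR adjusted p = 0.0483).

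**Figure D2:**
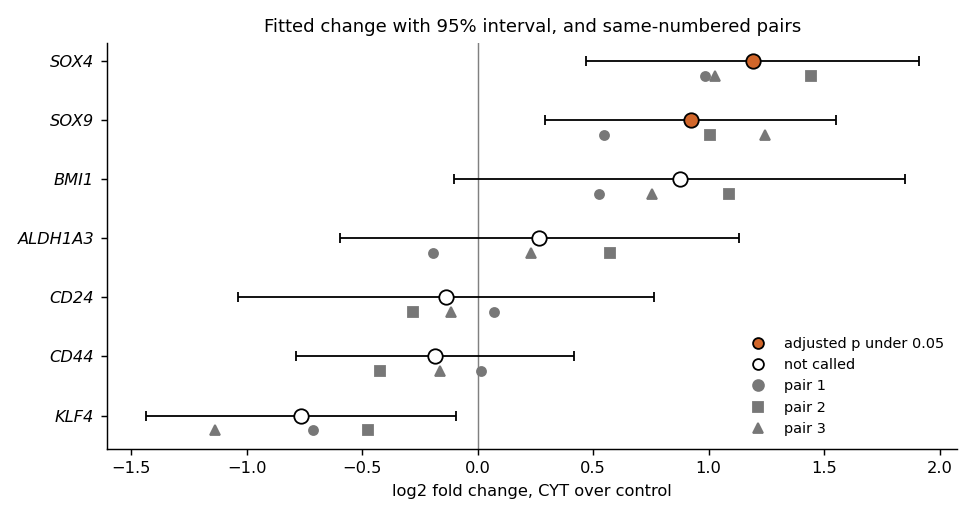
Log2 fold change of CYT over control (x axis) of the 7 markers tested, from edgeR with its unadjusted 95% interval (black bars, large circles filled where the adjusted p is under 0.05), with grey symbols under each bar for the 3 same-numbered pairs of libraries. SOX4 at 1.19 and SOX9 at 0.92 are called, and the intervals of BMI1, ALDH1A3, CD24 and CD44 cross 0. The pairs of SOX4, SOX9 and BMI1 are all above 0 and those of KLF4 all below 0. Of all genes tested, 32.8% have all pairs higher and 33.6% all pairs lower.

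CD44 (chr11:35138870-35232402, GRCh38) had levels of 140, 149 and 128 CPM in control replicates 1 to 3. In CYT replicates 1 to 3 it had 141, 111 and 114 CPM. CYT replicate 1 lay within the control range and the other CYT libraries below it. Means of 139 ± 11 and 122 ± 16.7 CPM (SD, n = 3) gave a log2 fold change of -0.19 (SE 0.27, edgeR adjusted p = 0.639). The 95% interval of -0.79 to 0.42 leaves room for a fall to 0.579-fold or a rise to 1.33-fold.

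CD24 (chr6:106969831-106975627, GRCh38) was a low gene in these cells, with 46 to 133 counts per library. Control replicates 1 to 3 had 3.97, 7.08 and 3.95 CPM. CYT replicates 1 to 3 had 4.16, 5.84 and 3.65 CPM. Replicate 2 was the highest library in both groups, and the others lay close together whatever the treatment. The means were 5.0 ± 1.80 and 4.55 ± 1.14 CPM (SD, n = 3), with a log2 fold change of -0.14 (SE 0.40, 95% interval -1.04 to 0.76, edgeR adjusted p = 0.827). Its sign changed without control replicate 2 (0.18) and without CYT replicate 3 (0.0092), so no direction can be given for CD24.

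The CD44 to CD24 ratio, an RNA counterpart of the surface phenotype, was 35.3, 21.1 and 32.2 CD44 counts per CD24 count in control replicates 1 to 3. In CYT replicates 1 to 3 it was 34.0, 19.1 and 31.1. The ratio was lower in CYT in each same-numbered pair, and both libraries numbered 2 were below the other 4. The mean log2 ratio, after division by gene length, was 3.49 ± 0.39 in control and 3.41 ± 0.45 in CYT (SD, n = 3), a difference of -0.086 (exact two-sided permutation test, p = 0.6). Leaving out 1 library moved this difference from -0.31 (without control replicate 2) to 0.17 (without CYT replicate 2), and it was also above 0 without control replicate 1 (0.059). Within same-numbered pairs it was -0.057, -0.15 and -0.054, below 0 in all 3, where an exact two-sided sign-flip test, chosen after seeing the data, gave p = 0.25, the smallest that 3 pairs allow. Taken per kilobase of merged exons, CD44 was 6.53 to 10.9 times CD24 in control and 5.91 to 10.5 times in CYT libraries. High CD44 beside low CD24 was a feature of both groups.

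**Figure D3:**
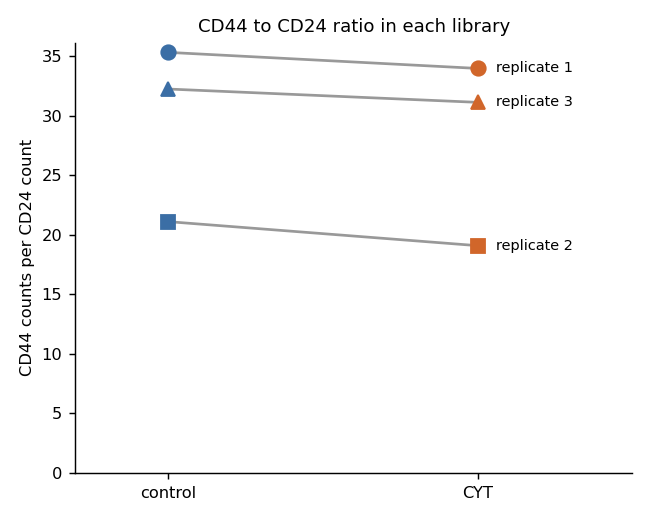
CD44 counts per CD24 count (y axis, from 0) in each control and CYT library, with lines joining libraries of the same replicate number. The lines are nearly level, from 35.3 to 34.0 for replicate 1 and from 21.1 to 19.1 for replicate 2.

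Of the aldehyde dehydrogenases behind the ALDH phenotype, ALDH1A3 (chr15:100877714-100916626, GRCh38) was the member with RNA, while ALDH1A1 (chr9:72900662-73080442, GRCh38) had none detected. It had 6.14, 7.93 and 9.06 CPM in control replicates 1 to 3 and 5.36, 11.8 and 10.7 CPM in CYT replicates 1 to 3. CYT replicate 1 was the lowest library of all and the other CYT libraries the highest, so the groups overlapped. The log2 fold change was 0.27 (SE 0.39, 95% interval -0.60 to 1.13, edgeR adjusted p = 0.641). ALDH1A1 had 0 counts in all 6 libraries, which allows a level of up to 0.0610 CPM over the control and 0.0739 CPM over the CYT libraries (3 counts of each group's summed counts). These limits cover counting error only.

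PROM1 and POU5F1 were at the edge of detection. PROM1 had 0, 0 and 2 counts in the control libraries and 3, 9 and 1 in the CYT libraries. The 13 counts after CYT against 2 in control give a ratio of count rates of 7.88 with a 95% counting interval of 1.78 to 71.9, and 9 of the 13 come from CYT replicate 2. In a fit without a filter on low counts, the edgeR adjusted p was 0.277 for PROM1. POU5F1 had 0, 11 and 3 counts in control and 3, 3 and 8 in CYT libraries, 14 counts in each group, with a ratio of 1.21 (95% counting interval 0.54 to 2.74) and, without the filter, an edgeR adjusted p of 0.882. For POU5F1 a change was not detectable at this depth. For PROM1 the counting interval lies above 1, but it leaves out the spread between libraries, and the fit that includes that spread made no call.

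Levels of different markers were compared per gene length. By the deposited FPKM (fragments per kilobase of gene, scaled to library size), the order in control was SOX9 (16.5 ± 2.51), BMI1 (14.3 ± 6.18), CD44 (6.46 ± 0.81), SOX4 (4.52 ± 0.86), KLF4 (2.46 ± 0.13), ALDH1A3 (1.14 ± 0.26) and CD24 (0.599 ± 0.254), all SD with n = 3. POU5F1 (0.0377), PROM1 (0.0034) and ALDH1A1 (0) closed it. The ranges of SOX9 and BMI1 overlapped, as did those of ALDH1A3 and CD24 and the neighbours below POU5F1, and the other neighbours were apart. After CYT, SOX4 (10.5 ± 4.02 FPKM) moved above CD44 (5.75 ± 0.84 FPKM) with no overlap of their libraries, and SOX9 was at 31.9 ± 4.57 FPKM.

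This order depended on the gene length used. The length behind each FPKM, the count divided by the FPKM and the summed counts, was 8401 bases for CD24 and 8933 for KLF4, longer than their loci of 5797 and 5631 bases. For CD24, ALDH1A3, SOX4, KLF4, BMI1, PROM1 and POU5F1 it equalled the sum of all distinct annotated exons of GENCODE 29, with overlapping exons counted repeatedly, and the same held within 1 bp for 92.2% of 13598 genes with at least 50 counts in a library. Of the 11840 of these genes in which that sum differs from the merged exons, 91.2% had the sum and 0.0422% the merged length. The exceptions among the markers were CD44, with a length of 21389 against a sum of 20627, and SOX9, with 3935, its merged exon length, against a sum of 4725. Where the sum was used, genes whose annotated exons overlap have a lower FPKM than by merged exons, and SOX4, with its single transcript, does not.

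In CPM per kilobase of merged exons, with no TMM factor, BMI1 came first in control (23.1), followed by SOX9 (16.5), CD44 (13.8), KLF4 (6.0), SOX4 (4.52), CD24 (1.62) and ALDH1A3 (1.33). The libraries of BMI1 and SOX9 overlapped, as did those of SOX9 and CD44 and of CD24 and ALDH1A3. After CYT, BMI1 was at 24.8, 74.7 and 30.3 (mean 43.2) and SOX9 at 28.2, 37.0 and 30.5 (mean 31.9) in replicates 1 to 3. BMI1 was above SOX9 in replicate 2 alone, and without that library the means were 27.5 and 29.3. On this scale CD44 (12.3) remained above SOX4 (10.5) in the mean after CYT, with overlapping libraries, while SOX4 and KLF4 changed places, from 4.52 and 6.0 in control to 10.5 and 3.61 after CYT, without overlap in either group. The rise and fall within a gene are the same on both scales.

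**Figure D4:**
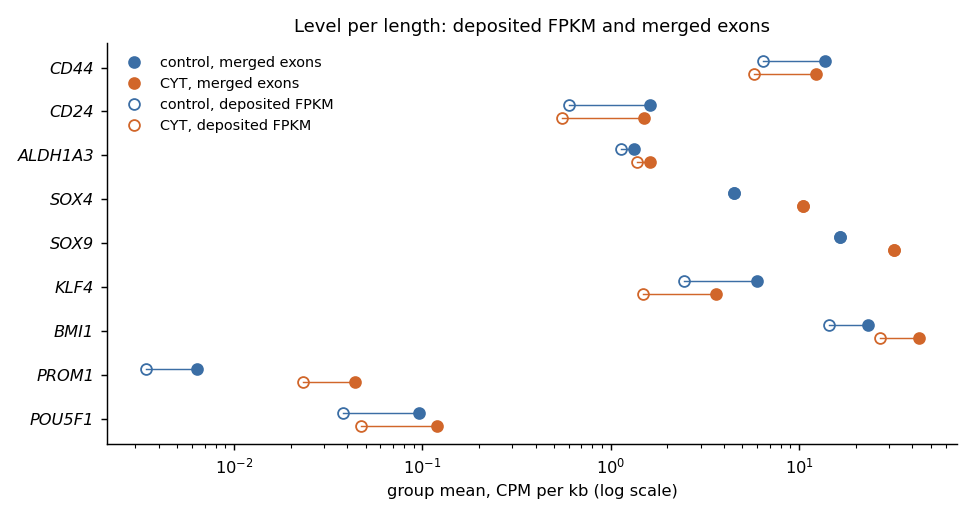
Group mean level per length (x axis, log scale, CPM per kilobase) of 9 markers, by the deposited FPKM (open circles) and by merged exon length (filled circles), in control (blue) and CYT (orange). ALDH1A1 is left out because it is at 0. CD24, POU5F1, KLF4 and CD44 shift the most with the length used, while SOX4 and SOX9 do not shift, and SOX4 moves from 4.52 to 10.5 after CYT.

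Several markers share sequence or position with other genes, and the use of strand in counting is not given in the sources used here. Of the windows of 50 bases in each gene's transcripts, 0 were shared with another gene for SOX9, KLF4 and ALDH1A1, and 0.32% for CD44. The read-through gene COMMD3-BMI1 shared 21.3% of the BMI1 windows but had only 16 to 48 counts, against 1141 to 4176 for BMI1. The antisense gene AC015712.2 shared 24.1% of those of ALDH1A3 and had 17 to 51 counts, against 76 to 166 for ALDH1A3, so reads of these genes cannot be told apart without strand. SOX9-AS1, which overlaps the SOX9 locus on the opposite strand, had 3 to 32 counts. POU5F1 shared 37.4% of its windows, mostly with its copies POU5F1B, POU5F1P3 and POU5F1P4, each at 0 counts, and 5.14% with TCF19 on the opposite strand. TCF19 had 873 to 1783 counts in control and 342 to 717 in CYT libraries, far above the at most 11 of POU5F1, so even the few POU5F1 counts are uncertain. Of the CD24 windows 5.26% were shared, 3.62% with its copy CD24P4, which was not among the copies summed. Summing the markers with their other copies and same-strand neighbours changed no call.

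Across the 6 libraries, the gene whose log2 CPM followed a marker most closely was SRGN for SOX4 (Pearson r = 0.999), TCTN3 for SOX9 (0.998), AP5S1 for KLF4 (0.999) and HIPK3 for BMI1 (0.998). For CD24 it was PRKAA2 (0.999), for ALDH1A3 TBCEL (0.988) and for CD44 DNAJC16 (0.976). These were the highest of 11416 or 11417 genes over 6 points that share library and treatment, and 560 genes had an r over 0.95 with SOX4 against 4 with CD44. They describe these libraries only. Among the markers themselves, SOX4 and SOX9 had an r of 0.907 and SOX4 and BMI1 one of 0.873, while KLF4 had -0.823 with SOX4 and -0.896 with SOX9. The pair CD44 and CD24 had 0.233.

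Of 19 SOX genes 9 were tested, and 5 rose and none fell, a share of 55.6% against 28.6% of all genes tested, with a median log2 fold change of 0.92 against 0.0064. SOX3 and SOX30 passed the filter on low counts through the CYT libraries alone, so they could enter only as higher, and of the other 7 genes 3 rose (42.9%, median 0.18). With the replicate block 5 rose and SOX12 fell (log2 fold change -0.79, edgeR adjusted p = 0.0395), where 39.9% of all genes were called. Without control replicate 1 or control replicate 3, 2 SOX genes were called, in fits that called 18.3% and 17.6% of all genes. Besides SOX4 and SOX9, these were SOX15 (1.51 ± 0.40 to 13.2 ± 4.88 CPM, log2 fold change 3.13, edgeR adjusted p = 0.00143), SOX3 and SOX30. SOX3, a neural progenitor factor, had 0 counts in control and 54, 17 and 77 in CYT libraries. Pooled, these are at least 59.8-fold higher against a floor of 3 counts over the control group. That bound covers the control side only and leaves out the spread between CYT libraries. SOX30, a germ-cell factor, had 0, 4 and 0 counts in control and 16, 19 and 13 in CYT libraries, and its call was lost without control replicate 1 or 3. SOX2, a core pluripotency factor, was not tested, with 4, 2 and 1 counts in control and 14, 5 and 6 in CYT libraries.

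Of 17 KLF genes 15 were tested, and 4 rose and 1 fell, a share of 33.3% against 28.6% of all genes tested (median log2 fold change 0.09). KLF1 passed the filter through the CYT libraries alone and could enter only as higher, and without it the share was 28.6% of 14 genes. The glucocorticoid-responsive KLF9 rose from 4.27 ± 1.17 to 26.8 ± 10.7 CPM (log2 fold change 2.65, edgeR adjusted p = 0.00195) and KLF15 from 2.73 ± 0.17 to 23.7 ± 7.5 CPM (3.11, edgeR adjusted p = 0.00076). KLF10, a TGF-beta-inducible member, rose by a log2 fold change of 1.33 (edgeR adjusted p = 0.0333), a call lost without replicate 1 or 3 of either group. KLF1, the erythroid member, had 0 counts in control and 18, 10 and 33 after CYT. Pooled, these are at least 24.6-fold higher against the same floor, with the same limit. KLF2, the member of quiescent endothelium and lymphocytes, fell from 44.0 ± 10.2 to 8.90 ± 5.30 CPM (-2.31, edgeR adjusted p = 0.00987). With the replicate block 8 of the 15 were called, against 39.9% of all genes.

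All 16 genes in a list chosen here for Polycomb complex 1 were tested, and 5 fell and none rose. This is a share of 31.2% against 28.6% of all genes tested (median log2 fold change 0.05), while BMI1 itself was not called. With the replicate block 5 fell and 2 rose, BMI1 and PCGF2 (log2 fold change 0.70, edgeR adjusted p = 0.0482), against 39.9% of all genes. Without CYT replicate 2 it was 5 lower and 1 higher (35.6% of all genes called), and without replicate 1 or 3 of either group 3 lower (17.6% to 20.7% of all genes). The chromodomain genes CBX7 (29.8 ± 5.43 to 6.34 ± 2.45 CPM, log2 fold change -2.23, edgeR adjusted p = 0.00316), CBX8 (-1.20, edgeR adjusted p = 0.0239) and CBX6 (-1.36, edgeR adjusted p = 0.0496) fell, as did PHC2 (-1.61, edgeR adjusted p = 0.0087) and PCGF3 (-1.42, edgeR adjusted p = 0.00669), a paralog of BMI1. The CBX8 call was lost without replicate 1 or 3 of either group, and the CBX6 call without any library except CYT replicate 2.

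Of 19 aldehyde dehydrogenase genes 13 were tested, and 2 rose and 3 fell, a share of 38.5% against 28.6% of all genes tested (median log2 fold change -0.04). The count was 0 without control replicate 1 and 2 without control replicate 3, where 18.3% and 17.6% of all genes were called, and 3 without CYT replicate 1 (20.7%). ALDH9A1 of betaine aldehyde metabolism (69.0 ± 5.82 to 150 ± 18.0 CPM, log2 fold change 1.12, edgeR adjusted p = 0.0139) and the mitochondrial ALDH6A1 (1.16, edgeR adjusted p = 0.0178) rose, and both calls were lost without control replicate 1 or 3. ALDH3B1 (-2.02, edgeR adjusted p = 0.0183) fell, a call lost without control replicate 1. ALDH3A2, the fatty aldehyde dehydrogenase (-1.06, edgeR adjusted p = 0.03), and ALDH1B1 (-0.88, edgeR adjusted p = 0.0385) fell, calls lost without replicate 1 or 3 of either group and, for ALDH1B1, also without control replicate 2. With upper-quartile normalization neither was called (edgeR adjusted p = 0.0531 for ALDH3A2 and 0.0734 for ALDH1B1), which left 3 genes of the list where 28.9% of all genes were called. ALDH3A2 also missed the threshold in both limma fits, and ALDH1B1 without a filter and with the filter at a mean of 5 CPM. The replicate block gave 2 higher and 4 lower, against 39.9% of all genes.

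Around the retinoic acid that ALDH1A3 makes, 10 of 19 genes were tested, and 2 rose and 1 fell, a share of 30% near the 28.6% of all genes tested (median log2 fold change 0.02). RDH10, the retinol dehydrogenase that supplies retinal, rose from 9.25 ± 1.92 to 57.8 ± 14.8 CPM (log2 fold change 2.64, edgeR adjusted p = 0.00102). CRABP2, which carries retinoic acid to its receptors, rose from 26.6 ± 10.7 to 124 ± 24.1 CPM (2.22, edgeR adjusted p = 0.00269). RXRA, the partner of those receptors, fell from 57.4 ± 11.1 to 5.21 ± 1.25 CPM (-3.46, edgeR adjusted p = 0.00047). All 3 calls were kept whichever library was left out.

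Among 16 tested genes of 19 in the table around CD44 and its ligand hyaluronan, 3 rose and 1 fell, a share of 25% under the 28.6% of all genes tested (median log2 fold change -0.48), although CD44 itself was not called. CEMIP2, a surface hyaluronidase (14.3 ± 1.20 to 78.8 ± 26.2 CPM, log2 fold change 2.46, edgeR adjusted p = 0.00129), and the hyaluronan synthase HAS3 (2.28 ± 0.33 to 11.7 ± 3.08 CPM, 2.36, edgeR adjusted p = 0.00224) rose, and so did HAS2 (1.47, edgeR adjusted p = 0.0215), whose call was lost without control replicate 1 or 3 or CYT replicate 3. EZR, the ezrin linker between the CD44 tail and actin, fell from 396 ± 70.6 to 138 ± 24.1 CPM (-1.52, edgeR adjusted p = 0.00455). The replicate block called 8 of the 16, against 39.9% of all genes. Among 5 tested genes of 8 that hold CD24 receptors and other signals against phagocytosis or complement, SIRPA, the receptor of CD47, rose from 6.55 ± 2.04 to 34.9 ± 4.34 CPM (2.42, edgeR adjusted p = 0.00159). It was 1 called gene of 5, a share of 20% against 28.6% of all genes tested. The count was 2 with DESeq2 (26.8% of all genes called), upper-quartile normalization (28.9%), no TMM (27.8%) and no filter (16%). It was also 2 in the limma fits (28.2% and 28.4%) and with the replicate block (39.9%). Without control replicate 1 (18.3%) or CYT replicate 2 (35.6%) it was 2, and without both libraries numbered 2 it was 3 (41%).

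**Figure D5:**
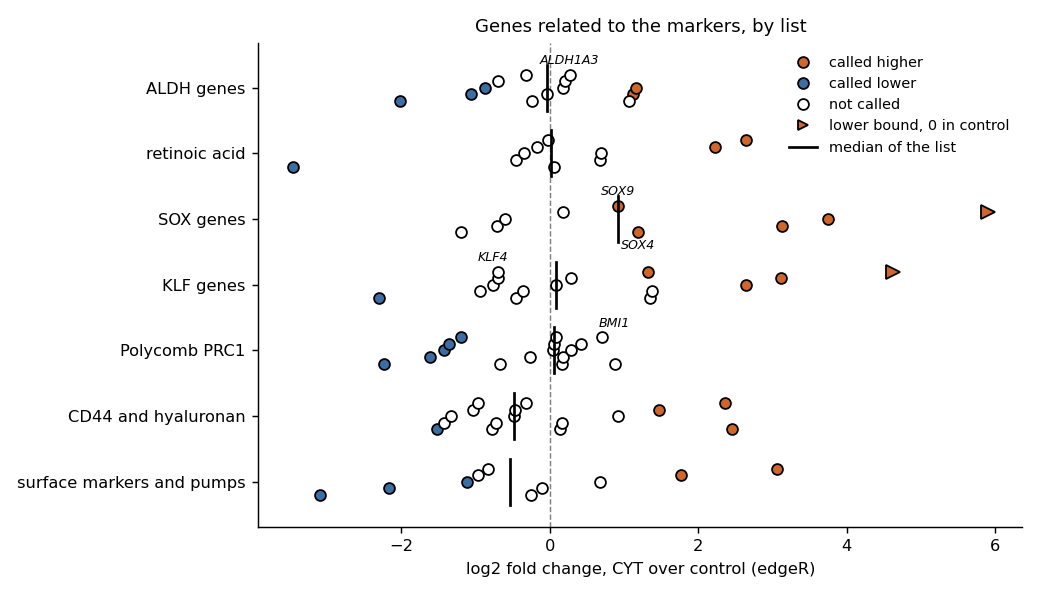
Log2 fold change of CYT over control (x axis, edgeR) of the tested genes in 7 lists related to the markers (y axis), filled where called at an adjusted p under 0.05, with a black line at the median of each list and a dashed line at the median of all genes tested. Triangles are lower bounds for SOX3 and KLF1, which had 0 counts in control. The SOX list has 5 of 9 genes called, all higher and 2 of them counted almost only in CYT libraries, and the Polycomb list 5 of 16, all lower, against 28.6% of all genes tested.

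Of 18 other surface markers and drug pumps of stem-like cells 10 were tested, and 2 rose and 3 fell, a share of 50% against 28.6% of all genes tested (median log2 fold change -0.54). LGR5 passed the filter through the CYT libraries alone and could enter only as higher, and without it the share was 44.4% of 9 genes (median -0.83). ABCG2, the pump behind the side population, rose from 2.48 ± 0.40 to 8.52 ± 4.61 CPM (log2 fold change 1.77, edgeR adjusted p = 0.017), a call lost without control replicate 1 or 3. LGR5, an R-spondin receptor of intestinal stem cells, had 2, 6 and 3 counts in control and 29, 31 and 19 after CYT (3.06, edgeR adjusted p = 0.00388). ITGB4, the integrin beta 4 chain, fell from 73.0 ± 24.6 to 8.52 ± 1.63 CPM (-3.10, edgeR adjusted p = 0.00075), and ENG, a TGF-beta co-receptor, fell from 19.9 ± 7.53 to 4.45 ± 2.25 CPM (-2.16, edgeR adjusted p = 0.0107). ITGB3 fell (-1.11, edgeR adjusted p = 0.0451), a call lost whichever library was left out, with upper-quartile normalization, without a filter and with the filter at a mean of 5 CPM. ITGA6, the partner of ITGB4, had a log2 fold change of -0.96 (edgeR adjusted p = 0.0836, and 0.0208 with the replicate block).

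Of 14 genes of the embryonic pluripotency network, POU5F1 and KLF4 included, 2 were tested, DNMT3B and KLF4. Of the others, 7 had at most 3 counts in any library and 5 of these had 0 throughout, NANOG among them. DNMT3B, a de novo DNA methyltransferase, was called and fell (7.20 ± 2.80 to 2.15 ± 0.69 CPM, log2 fold change -1.75, edgeR adjusted p = 0.0174), a call lost without control replicate 1. This is 1 gene of 2 against 28.6% of all genes tested, and with the replicate block, where 39.9% of all genes were called, both were. Besides ALDH1 and OCT4, the study assayed 3 genes as stemness markers. GLI1, the transcription factor at the end of the Hedgehog pathway, rose from 1.44 ± 1.07 to 17.1 ± 7.32 CPM (3.59, edgeR adjusted p = 0.00366). USP37, a deubiquitinase, had 10.7 ± 4.64 and 27.1 ± 18.7 CPM (1.34, edgeR adjusted p = 0.0832, and 0.0154 with the replicate block), with CYT replicate 2 at 684 counts against 213 and 223. SMO, the Hedgehog signal transducer upstream of GLI1, had at most 8 counts and was not tested.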

How the data were processed

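RNA of 3 control and 3 CYT-treated MDA-MB-231-DR libraries was analysed, with groups and replicate numbers taken from the labels. Per the study's methods, mRNA was sequenced on an Illumina NovaSeq platform and clean reads were aligned with Hisat2; the submitters' processing notes name hg38 and FastQC 0.12.1. The authors deposited raw counts per gene, and the program, annotation and use of strand behind them are not given in the sources used here. The authors also deposited FPKM values, for which the methods name Stringtie, and these were used for levels between genes and as an alternative unit. Summed gene counts per library ran from 13056270 to 17770102, and intervals and floors of 3 counts cover counting error only.

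Counts of 15572 genes that passed filterByExpr (minimum count 10) were tested with edgeR 4.0.16 (TMM, quasi-likelihood, R 4.3.3) and adjusted by the Benjamini-Hochberg method, with calls at an adjusted p under 0.05. Standard errors were derived from each gene's F statistic and fold change. Alternatives were DESeq2 1.42.0, upper-quartile normalization, summed counts without TMM, no filter or a filter at a mean of 5 CPM, a replicate block, limma 3.58.1 on the log2 of FPKM plus 1 or plus 0.1, sums with gene copies and same-strand neighbours, and leaving out each library in turn. Each pair of replicates differed beyond sampling noise (chi-square of at least 25 per gene). On simulated counts of CYT against control over 15572 genes, 200 of them shifted by 2 on the log2 scale, edgeR recovered 128 with 5.88% false calls, edgeR with the block 129 with 5.15%, limma 133 with 6.34% and DESeq2 162 with 19.4%.

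Deviations from the group means went together between libraries of the same number (r across genes 0.188, 0.458 and 0.124 for numbers 1, 2 and 3), each over 0.1, which was taken as pairing. It rests on the numbers in the labels and this check alone, and libraries of different numbers also went together (0.303 for control 1 with CYT 3 and 0.201 for control 3 with CYT 1), above the values of numbers 1 and 3. The markers and gene lists were chosen with earlier results of these data known. Besides the 10 markers, the text names their overlapping or copied genes, up to 4 called genes per direction of each list with a mean of at least 5 CPM, every called gene where a list had 5 or fewer, 8 related genes whatever their result, and the gene most correlated with each marker. SOX12 and PCGF2 were named after their values were seen. Primer sequences come from the study's supplement, promoter windows from RefSeq (GRCh38.p14) and exon lengths from GENCODE 29, whose loci matched the table for all 10 markers. Of the marker lists, 1 gene is not reported here.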

Additional observations from a re-analysis of the deposited data

How the results depend on the processing

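The number of markers called was 2 under DESeq2, upper-quartile normalization, summed counts without TMM and the filter at a mean of 5 CPM. It was also 2 in both limma fits and in the sums with copies. These fits called 25% to 28.9% of all genes. The number was 1 without a filter (16%), 4 with the replicate block (39.9%), and 0 to 3 when a library was left out (17.6% to 35.6%). Without both libraries numbered 2, an alternative added after seeing the data, it was 4 (41%). Genes called in all were 2859 of 11420 tested with the 5 CPM filter. With a library left out they were 2891 to 5752, of 16064 to 16412 tested. Without a filter SOX9 was not called (log2 fold change 0.85, edgeR adjusted p = 0.0865), and leaving out a library gave 0.78 to 1.01 for SOX9, 0.89 to 1.33 for SOX4, -0.86 to -0.62 for KLF4 and -0.37 to 0.18 for CD24. The replicate block called KLF4 (-0.77), BMI1 (0.79), USP37 (1.25) and ITGA6 (-0.91) together with SOX12, PCGF2 and, among the overlapping or correlated genes, TCTN3 (0.71), HIPK3 (0.89) and TCF19 (-1.10), with no further call gained or lost among the genes named. Without both libraries numbered 2, KLF4 (-0.88) and BMI1 (0.68) were called too. CD24 turned to 0.0071 under upper-quartile normalization and to 0.011 without both libraries numbered 2, with adjusted p of 0.992 and 0.983. Calls of genes in the related lists were lost for ALDH1B1, ALDH3A2, ITGB3, CBX6 and AXL with upper-quartile normalization, for ALDH1B1, ITGB3, AXL and LOX without a filter, for ALDH1B1, ITGB3, CBX6 and AXL with the 5 CPM filter, for ALDH3A2 and LOX in both limma fits, for LOX without TMM and for ITGB3 without both libraries numbered 2. DESeq2 called USP37. The cause of these changes was not tested. The 5 CPM filter also left SOX3, SOX30, KLF1, LGR5, HAS2, DNMT3B and KRT15 untested, so their calls are absent from that fit. With it, the called genes went from 5 to 3 in the SOX list and in the list of surface markers and drug pumps. They went from 1 to 0 in the pluripotency list and stayed at 5 in the KLF list. Upper-quartile normalization moved the median change over all tested genes from 0.0064 to 0.16 (log2), while DESeq2 gave -0.0074 over the same genes. With merged exon length, also added after seeing the data, the place in the order of levels became 1 for BMI1, 2 for SOX9, 4 for KLF4, 5 for SOX4, 6 for CD24 and 7 for ALDH1A3 in control, and 1 for BMI1, 2 for SOX9, 3 for CD44 and 4 for SOX4 after CYT, where BMI1 was above SOX9 in replicate 2 alone.

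The main limits are 3 libraries per group, 1 of them (CYT replicate 2) apart from the others, and counts too few to compare PROM1, POU5F1 and ALDH1A1.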
